A study of Mus musculus with 6 samples.

Results

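The nuclear receptors and coregulators examined here were 35 genes chosen by name, 26 receptors and 9 coregulators, and all 35 had a probe on the array. The brightest probe stood for each gene, and 34 of the 35 passed the filter on dim signals, among 20658 features that did. The array named 59 probes for these genes, of which 57 passed. Hnf4g, a receptor of the hepatocyte nuclear factor 4 family, was the gene left out: its probe was not well above background in any pool pair under either diet.

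Livers came from male Apoe-deficient mice (genetic background C57BL/6J), so both diet groups were without apolipoprotein E and prone to high plasma cholesterol. The squalene group, 10 mice, ate a purified Western diet with 0.15% cholesterol and 20% palm oil to which 1% squalene had been added. The dose is given as about 1 g/kg at an intake of 3 g per day. The Western group, 9 mice, ate the diet without squalene, and both were fed for 11 weeks. The ages of the animals are not given in the sources used here. RNA was combined into 4 pools per diet, each from 2 or 3 animals, and every two-colour array set 1 squalene pool against 1 Western pool. Pool pairs 1 and 4 had squalene in the red dye Cy5, and pairs 2 and 3 had it in the green dye Cy3; pairs 1 and 2 were hybridised on 2 arrays each. Replicates are pool pairs (n = 4), and every ratio is log2 of squalene over Western. Pooling hides the spread between single animals.

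Nuclear receptors are transcription factors that bind DNA and are switched by small lipophilic ligands such as fatty acids, oxysterols, retinoids, thyroid hormone and steroids. Many act as heterodimers with a retinoid X receptor. On their target genes they recruit corepressors when inactive, and coactivators, among them the steroid receptor coactivators, the PGC-1 proteins and the Mediator complex, when active. In liver they are known for setting fatty acid oxidation, bile acid and cholesterol handling, and glucose output.

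No receptor or coregulator was distinguishable between the diets at this replication. With limma and Benjamini-Hochberg adjustment over all 20658 features, 0 of the 34 were called at an adjusted p under 0.05, where 0% of all features were called, and the smallest adjusted p among the 34 was 1. At an unadjusted p under 0.05 the count was 0 of 34, beside 2.47% of all features. The mean ratio was above 0 for 16 and below 0 for 18, against 51.8% of all features above 0. Only Nr5a2 was above 0 in all 4 pool pairs, as were 3.34% of all features, and 0 of the 34 were below 0 in all 4, as were 3.04%. The median of the 34 ratios was -0.0016, beside 0.0029 over all features.

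The 95% intervals of the 34 ratios, from limma's moderated SE, bound the differences under the processing reported here, and not under every processing of these arrays. All 34 intervals held 0 and lay inside a 2-fold change either way. A total of 33 lay inside 1.5-fold, the brightest Med1 probe being the exception with an upper bound of 0.65, and 24 lay inside 1.25-fold. The median half-width was 0.20 on the log2 scale. Without the dye term the counts were 34, 33 and 20. The scanner software's processed signals gave larger SEs for dim genes such as Esr1 (0.24), Esrrg (0.26), Nr4a2 (0.28) and Ppargc1b (0.24). In the reported fit these SEs were 0.14, 0.12, 0.15 and 0.12, so intervals of dim genes depend on the processing.

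**Figure D1:**
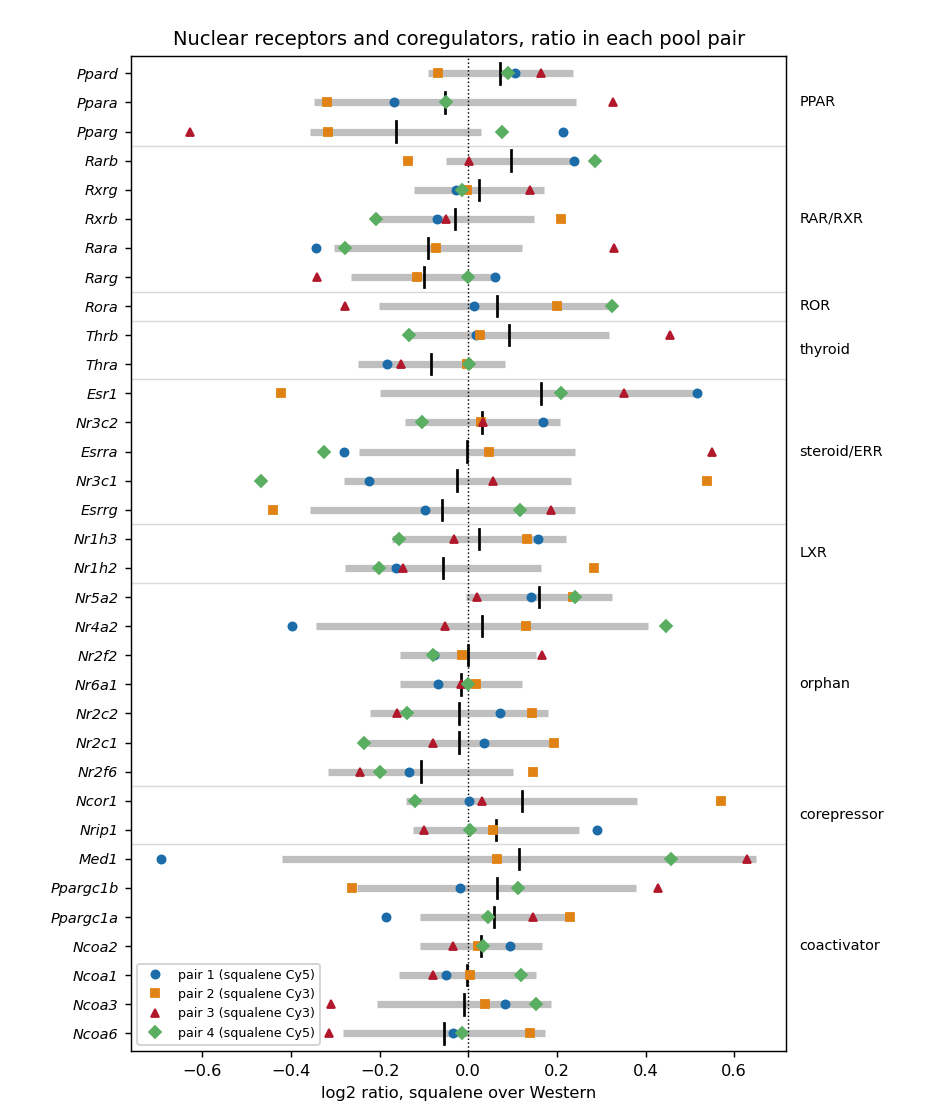
Log2 ratio of squalene over Western (horizontal axis) for the 34 measured receptors and coregulators, grouped by role; coloured points are the 4 pool pairs, the black tick is their mean and the grey bar its 95% interval from limma. Means lie between -0.16 and 0.16 and every grey bar reaches 0, while single pairs of Med1 run between -0.69 and 0.63.

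The peroxisome proliferator-activated receptors sense fatty acids. Ppara, the main driver of fatty acid oxidation genes in liver, had log2 intensities of 13.86, 13.96, 14.30 and 14.13 in squalene pools of pairs 1 to 4, against 14.03, 14.27, 13.97 and 14.18 in Western pools. The squalene pool was the higher one in pair 3 alone, and the 2 diets overlapped. Its ratios were -0.17, -0.32, 0.33 and -0.05, with a mean of -0.05 ± 0.28 (SD, n = 4). Ppard, a widely expressed relative, averaged 0.07 ± 0.099 (SD, n = 4; range -0.069 to 0.16).

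Pparg, best known from adipocytes and macrophages, had the lowest mean of the 34. Its log2 intensities were 10.20, 9.84, 9.55 and 9.95 in squalene pools, against 9.99, 10.16, 10.18 and 9.87 in Western pools. The pattern is split: the squalene pool was higher in pairs 1 and 4 and lower in pairs 2 and 3. The ratios, given in full after their values were seen, were 0.21, -0.32, -0.63 and 0.08, with a mean of -0.16 ± 0.38 (SD, n = 4). The limma unadjusted p was 0.081 with the dye term and 0.30 without it.

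Summed markers of stellate cells, of red cells and of hepatocytes had the same sign as Pparg in each of the 4 pairs, which is also the split by dye orientation. All 15 listed stellate cell and fibroblast markers were measured, 4 with a mean above 0 and 11 below, and 5 were lower at an unadjusted p under 0.05, a threshold met in either direction by 2.47% of all features. Their summed log2 level was 14.91 to 15.44 in squalene pools and 15.26 to 15.46 in Western pools, a difference of 0.11, -0.31, -0.43 and 0.018 in pairs 1 to 4. Of 9 red cell genes 7 were measured, 0 with a mean above 0 and 7 below, and 4 were lower at an unadjusted p under 0.05. Their summed level was 16.28 to 17.36 in squalene pools and 16.76 to 17.99 in Western pools, a difference of 0.25, -0.84, -1.71 and 0.37 in pairs 1 to 4. The other 2 genes of that list had no value. The unadjusted p-values of the stellate and red cell genes come from limma after the dye term. No gene of either list was below 0 in all 4 pairs. Of 17 macrophage markers 15 were measured, 1 above 0 and 14 below, with summed levels of 16.30 to 17.24 in squalene pools and 16.49 to 17.10 in Western pools, and their difference had the sign of Pparg in pairs 1 and 3 but not in pairs 2 and 4; Cd68 and Cd163 had no value. Of 7 adipocyte markers 3 were measured, 1 above 0 and 2 below, at 9.74 to 11.02 in squalene pools and 9.90 to 10.80 in Western pools, and the defining genes Adipoq, Lep, Plin1 and Retn had no value. The part of these cells in the Pparg ratios was not tested. In pooled whole liver, fewer cells of a type and less RNA per cell cannot be told apart.

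Hepatocyte markers, the check on the tissue label, were measured for 14 of 14 genes, 11 above 0 and 3 below. Their summed level was 20.37 to 20.74 in squalene pools and 20.33 to 20.73 in Western pools. It was higher in whichever pool carried Cy5, in all 4 pairs, with differences of 0.41, -0.33, -0.34 and 0.35. Of the other lists, 14 of 15 endothelial markers were measured (4 above 0, 10 below), 10 of 15 lymphocyte markers (8 above, 2 below) and 6 of 9 bile duct markers (2 above, 4 below).

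**Figure D2:**
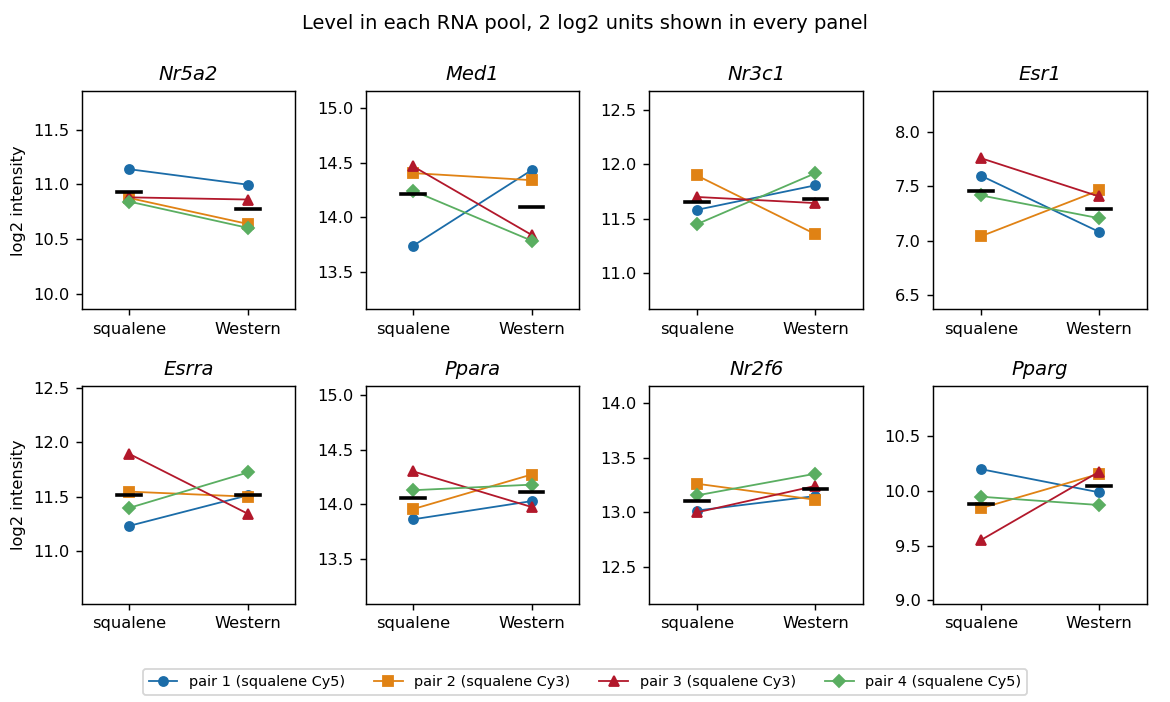
Log2 intensity after normalisation (vertical axis, 2 log2 units in every panel) in squalene pools (left) and Western pools (right) for 8 genes; lines join the 2 pools of a pair and black bars are diet means. Lines run upward and downward in every panel but that of Nr5a2, where all 4 squalene pools lie above their Western partners, by 0.020 to 0.24.

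Retinoid receptors are represented by the retinoic acid receptors and the retinoid X receptors, their dimer partners. Rarb, itself a retinoic acid target, averaged 0.097 ± 0.20 (SD, n = 4; range -0.14 to 0.29). Rara averaged -0.09 ± 0.30 (range -0.34 to 0.33), and Rarg -0.099 ± 0.18 (range -0.34 to 0.059). Rxrb averaged -0.030 ± 0.17 (range -0.21 to 0.21) and Rxrg 0.024 ± 0.077 (range -0.027 to 0.14). Of these 5 genes 2 had a mean above 0 and 3 below, and each mean was smaller than its own SD between pairs. Rora, an orphan receptor tied to the circadian clock and lipid metabolism, averaged 0.065 ± 0.26 (range -0.28 to 0.32).

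The thyroid hormone receptors leaned opposite ways without passing the test. Thrb, the main hepatic form, averaged 0.091 ± 0.25 (SD, n = 4; range -0.13 to 0.45), and Thra -0.083 ± 0.098 (range -0.18 to 0.0027). Both probes of Thrb gave a mean of 0.09, and both probes of Thra a mean below 0. The Thrb probes shared a sign in 3 of the 4 pairs, but the Thra probes in only 1.

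Steroid receptors and estrogen-related receptors held 3 of the 4 largest spreads between pool pairs. Nr3c1, the glucocorticoid receptor, had log2 intensities of 11.58, 11.90, 11.70 and 11.45 in squalene pools, against 11.81, 11.36, 11.64 and 11.92 in Western pools. Its ratios of -0.22, 0.54, 0.056 and -0.47 averaged -0.024 ± 0.43 (SD, n = 4). The diets overlapped fully, with squalene higher in the pairs where it was in Cy3.

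Esrra, estrogen-related receptor alpha, a partner of the PGC-1 coactivators on mitochondrial genes, showed the same split. Its log2 intensities were 11.23, 11.55, 11.89 and 11.40 in squalene pools, against 11.52, 11.50, 11.35 and 11.72 in Western pools. The ratios of -0.28, 0.046, 0.55 and -0.33 averaged -0.0027 ± 0.40 (SD, n = 4).

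Esr1, estrogen receptor alpha, had the highest mean of the 34. Its log2 intensities were 7.60, 7.04, 7.76 and 7.42 in squalene pools, against 7.08, 7.46, 7.41 and 7.21 in Western pools. Squalene was higher in every pair except pair 2, the ratios being 0.52, -0.42, 0.35 and 0.21, and the mean was 0.16 ± 0.41 (SD, n = 4). The second Esr1 probe averaged 0.14 and was above 0 in every pair, at 0.064 in pair 2. Esrrg averaged -0.059 ± 0.28 (range -0.44 to 0.19), and Nr3c2, the mineralocorticoid receptor, 0.032 ± 0.11 (range -0.10 to 0.17).

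The liver X receptors respond to oxysterols and switch on cholesterol efflux and lipogenic genes. Nr1h3, the form abundant in liver, averaged 0.025 ± 0.15 (SD, n = 4; range -0.16 to 0.16), and its second probe averaged 0.029. Nr1h2, the ubiquitous form, averaged -0.057 ± 0.23, and its ratio was below 0 in every pair except pair 2, where it was 0.28.

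Among orphan receptors, Nr5a2 kept 1 direction across the pool pairs. Nr5a2, also called liver receptor homolog 1, binds DNA as a monomer and is known for regulating bile acid synthesis genes in liver. Its log2 intensities were 11.14, 10.88, 10.88 and 10.84 in squalene pools, against 11.00, 10.64, 10.86 and 10.60 in Western pools. Each squalene pool exceeded its partner, although the 2 ranges overlapped. The ratios of 0.14, 0.24, 0.020 and 0.24 averaged 0.16 ± 0.10 (SD, n = 4), a 1.12-fold level, with a 95% interval of -0.0054 to 0.32 and a limma unadjusted p of 0.055. The second Nr5a2 probe averaged 0.13 and was below 0 in pair 1 at -0.11. The unadjusted p of the first probe lay under 0.05 in 5 of the alternatives tried, between 0.033 and 0.049, and its adjusted p was 1 in each.

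Promoter sequence is shown for Nr5a2 and Pparg because they had the smallest unadjusted p of the 34. Both are the 250 bases before an annotated start, credited to RefSeq on GRCm38.p6 and written 5′ to 3′ on the gene's strand, with the receptor core motif AGGTCA (or its reverse complement TGACCT) in capitals. The Nr5a2 window is chr1:136960449-136960698 on the minus strand and holds the motif with its first base at -64. The Pparg window is chr6:115362099-115362348 on the plus strand and holds it at -9.
Nr5a2: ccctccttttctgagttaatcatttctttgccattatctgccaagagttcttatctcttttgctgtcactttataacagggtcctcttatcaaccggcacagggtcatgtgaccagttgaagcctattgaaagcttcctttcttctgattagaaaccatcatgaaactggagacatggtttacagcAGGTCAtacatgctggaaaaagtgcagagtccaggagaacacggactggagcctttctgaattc
Pparg: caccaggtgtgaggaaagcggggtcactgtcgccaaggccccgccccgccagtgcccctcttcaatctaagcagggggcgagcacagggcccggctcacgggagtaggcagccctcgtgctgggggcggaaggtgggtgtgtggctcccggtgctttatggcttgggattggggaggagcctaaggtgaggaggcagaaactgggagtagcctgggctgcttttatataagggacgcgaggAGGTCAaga
Promoters were on hand for 29 of the 35 genes. The motif, searched on both strands, lay in 6 of the 29, Nr5a2, Nr6a1, Pparg, Rarg, Rxrg and Thrb, or 20.7%, beside 15.8% of 27025 genes with windows of the same length. The GC box GGGCGG, searched likewise, lay in 17, or 58.6%, beside 35.4%. A gene was counted if the window of any of its annotated starts matched, so genes with more starts match more easily. Of the 47 starts of the 29 genes, 7 held the motif and 22 the GC box. The share per start over all genes was not taken. Nr5a2 has 2 annotated starts and the window of the other one lacks the motif; Pparg has 3, of which 1 lacks it. The probes do not tell which start was used.

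Nr2f6, a receptor of the COUP family, was among the 3 brightest. Its log2 intensities were 13.02, 13.26, 13.00 and 13.15 in squalene pools, against 13.15, 13.11, 13.24 and 13.35 in Western pools. Squalene was lower in every pair except pair 2, with ratios of -0.13, 0.15, -0.24 and -0.20 and a mean of -0.11 ± 0.17 (SD, n = 4). Nr2f2, its relative, averaged -0.00096 ± 0.12 (range -0.080 to 0.17). The testicular receptors Nr2c1 and Nr2c2 averaged -0.022 ± 0.18 (range -0.24 to 0.19) and -0.021 ± 0.15 (range -0.16 to 0.14). Nr6a1, the germ cell nuclear factor, averaged -0.017 ± 0.037 (range -0.067 to 0.018), the smallest SD of the 34. Its signal was dim and its repeat arrays disagreed, at 0.098 and -0.23 in pair 1 and 0.17 and -0.13 in pair 2. The SD between its repeat arrays was 0.22, so the small SD between pairs does not show a steady level. Nr4a2, an immediate early receptor, averaged 0.031 ± 0.35 (range -0.40 to 0.45).

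The corepressors had means above 0 and intervals that held 0. Ncor1, the scaffold that brings histone deacetylase 3 to unliganded receptors, averaged 0.12 ± 0.31 (SD, n = 4; range -0.12 to 0.57), and its second probe averaged -0.00068. Nrip1, known as RIP140, which represses liganded receptors, averaged 0.062 ± 0.17 (range -0.099 to 0.29).

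Of 7 coactivators 4 had a mean above 0 and 3 below. Med1, the Mediator subunit that contacts liganded receptors, had the largest spread of the 34. Its log2 intensities were 13.74, 14.41, 14.47 and 14.24 in squalene pools, against 14.43, 14.34, 13.84 and 13.79 in Western pools. Its ratios of -0.69, 0.065, 0.63 and 0.46 averaged 0.11 ± 0.59 (SD, n = 4), so pair 1 opposed the other 3. The further Med1 probes gave 0.15, 0.036 and -0.098 in pair 1, where the brightest gave -0.69, and their means were 0.14, 0.079 and -0.047. Their SDs between pairs were 0.095, 0.12 and 0.096. They were dimmer, with mean log2 intensities of 9.57, 8.06 and 6.70 against 14.2 for the brightest. The largest spread is thus that of the brightest probe, and the further Med1 probes did not share it.

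The PGC-1 coactivators are induced by fasting and drive mitochondrial and gluconeogenic genes. Ppargc1a averaged 0.058 ± 0.18 (SD, n = 4; range -0.19 to 0.23) and Ppargc1b 0.064 ± 0.29 (range -0.26 to 0.43). The steroid receptor coactivators Ncoa1, Ncoa2 and Ncoa3 averaged -0.0022 ± 0.087, 0.029 ± 0.053 and -0.0086 ± 0.20, with pair values between -0.31 and 0.15. Ncoa6, which belongs to a histone methyltransferase complex, averaged -0.056 ± 0.19 (range -0.31 to 0.14).

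The pairs differed among themselves by more than repeat arrays did. The SD between pool pairs exceeded the SD between repeat arrays for 31 of the 34 genes, 91.2%, beside 85.4% of all features, with median SDs of 0.18 and 0.057. The SD between pairs spans both dye orientations, while repeat arrays of a pair share their orientation. Differences between dyes and between pools are therefore not separated here. Esr1 read 0.53 and 0.50 on the repeat arrays of pair 1 and -0.41 and -0.43 on those of pair 2. Med1 read -0.68 and -0.70 in pair 1, Ncor1 0.56 and 0.59 in pair 2, and Nr3c1 0.55 and 0.53 in pair 2. The widest disagreement between repeat arrays was that of Nr3c2 in pair 1, -0.089 on slide 1 and 0.43 on slide 2. The median gap between repeat arrays was 0.069 in pair 1 and 0.045 in pair 2, beside 0.074 and 0.071 over all features.

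**Figure D3:**
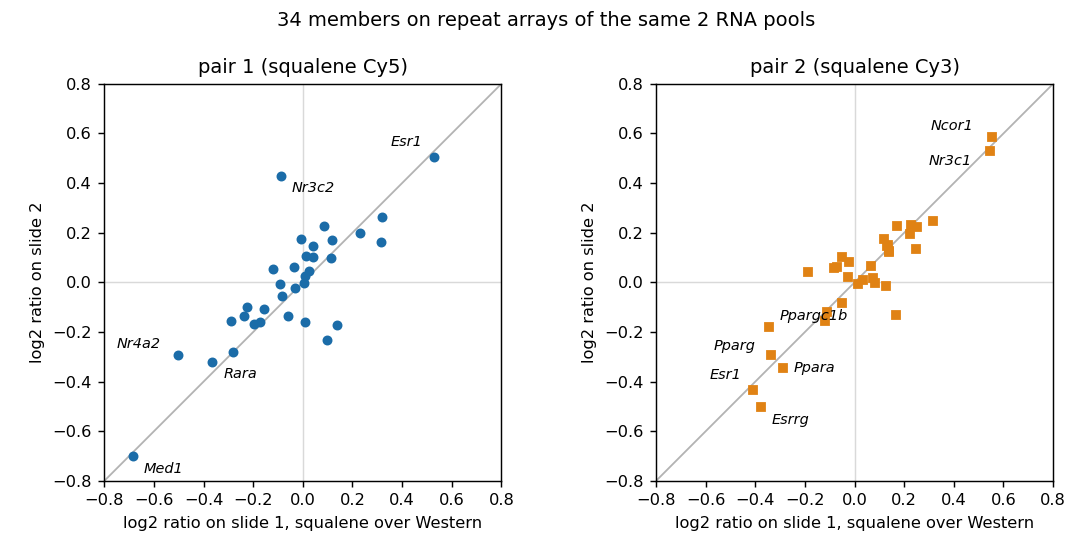
Log2 ratio of squalene over Western on slide 1 (horizontal) and slide 2 (vertical) for 34 genes, in the repeat arrays of pair 1 (left) and pair 2 (right); the diagonal marks equal values. Most genes lie near the diagonal, with a median gap of 0.069 in pair 1 and 0.045 in pair 2, and Nr3c2 lies farthest from it in pair 1.

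Some ratios followed the dye orientation. Nr3c1, Esrra, Pparg and Rarg, 4 of the 34 or 11.8%, had 1 sign in pairs 1 and 4 and the other in pairs 2 and 3, as did 27.8% of all features; the Rarg ratio in pair 4 was 0.00043. The mean ratio of Nr3c1 was -0.35 with squalene in Cy5 and 0.30 with squalene in Cy3, that of Esrra -0.30 and 0.30, and that of Pparg 0.14 and -0.47. Each orientation holds 2 pool pairs, so the dye and the pools that share it cannot be told apart.

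**Figure D4:**
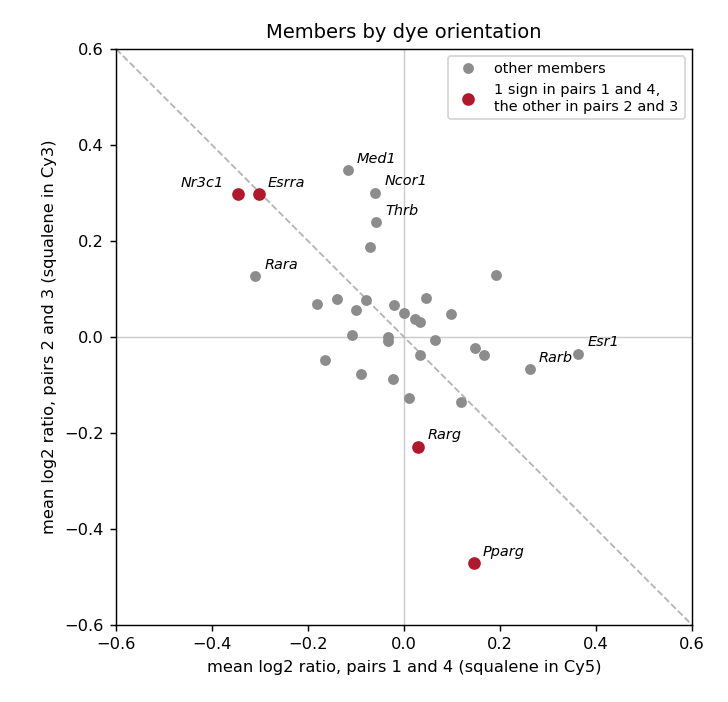
Mean log2 ratio of squalene over Western in pairs 1 and 4, squalene in Cy5 (horizontal), and in pairs 2 and 3, squalene in Cy3 (vertical), for 34 genes; the dashed line marks equal size with opposite sign, and red points split by orientation. Nr3c1 at -0.35 and 0.30 and Esrra at -0.30 and 0.30 lie on or near that line.

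Further probes showed how far a mean depended on the probe chosen. A total of 19 genes had 23 further probes, of which 13 shared the sign of the brightest probe's mean and 10 did not, with a median gap of 0.050 and a largest gap of 0.16 for Med1. None of the 23 had a limma unadjusted p under 0.05. The 3 Ppara probes read 0.33, 0.65 and 0.40 in pair 3 and below 0 in pairs 1 and 2. In pair 4 they read -0.051, -0.15 and 0.091, and the mean of the third was 0.051, opposite in sign to the brightest. The second probe of Nr3c1 had the opposite sign to the brightest in all 4 pairs.

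Other receptors and coregulators gave a similar picture. Of 23 other receptors 16 were measured, 8 with a mean above 0 and 8 below, with a median of 0.019. Nr0b2, the small heterodimer partner that represses bile acid synthesis, was the only one at an unadjusted p under 0.05, with a ratio of -0.24 ± 0.25 (SD) and 1 sign in all 4 pairs. Esrrb averaged -0.089 ± 0.23. Of 35 other coregulators 34 were measured, 14 above 0 and 20 below, and 0 were at an unadjusted p under 0.05. Trim24 averaged 0.19 ± 0.15, Hmga1 -0.12 ± 0.19 and Cited2 -0.089 ± 0.076.

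Listed target genes of the receptors were counted in the same fit, and 0 of them were called; some genes are on several lists. The counts at an unadjusted p under 0.05 stand beside 2.47% of all features in either direction. These limma p-values are taken after the dye term. They do not measure the SD printed beside a mean, which spans all 4 pairs. Of 30 PPARalpha targets 8 had a mean above 0 and 22 below, with a median of -0.049, and 1 was at an unadjusted p under 0.05. That gene was Pdk4, a kinase that restrains glucose oxidation, at -0.57 ± 0.95 (SD), with -1.79 in pair 3 and 0.33 in pair 1. Acaa1b averaged -0.16 ± 0.18 and Cd36, a fatty acid transporter, -0.21 ± 0.35. Of 18 LXR targets 8 were above 0 and 10 below, with a median of -0.066, and 3 were lower at an unadjusted p under 0.05. Pltp, the phospholipid transfer protein, averaged -0.22 ± 0.12, Mylip, which degrades the LDL receptor, -0.16 ± 0.052, and Lpl, lipoprotein lipase, -0.39 ± 0.67. Pltp and Mylip were below 0 in all 4 pairs, and Lpl was 0.30 in pair 1.

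Of 19 glucocorticoid receptor targets 9 were above 0 and 10 below, with a median of -0.028, and 2 were lower at an unadjusted p under 0.05. These were Ddit4, a brake on mTORC1, at -0.67 ± 0.47 and below 0 in all 4 pairs, and Lcn2, lipocalin 2, at -0.36 ± 0.64. Cdkn1a averaged -0.23 ± 0.36. Of 12 thyroid hormone receptor targets 7 were above 0 and 5 below, with 0 at an unadjusted p under 0.05; Gpd2 averaged -0.072 ± 0.21, Hr 0.062 ± 0.15 and Klf9 0.059 ± 0.40. Of 12 retinoic acid receptor targets 10 were measured, 6 above 0 and 4 below. Cyp26a1, which degrades retinoic acid, was the only one at an unadjusted p under 0.05, at 0.34 ± 0.36 with 0.86 in pair 1 and above 0 in all 4 pairs. Cyp26b1 averaged 0.16 ± 0.42.

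Of 13 ROR targets 10 were measured, 4 above 0 and 6 below, with 0 at an unadjusted p under 0.05; Cyp8b1, the sterol 12-alpha-hydroxylase, averaged 0.19 ± 0.17, Avpr1a -0.38 ± 0.56 and Nr1d1 0.10 ± 0.14. Of 19 targets of the estrogen-related receptors and PGC-1, 10 were above 0 and 9 below, and Pdk4 was the only one at an unadjusted p under 0.05; Ndufs1 averaged 0.099 ± 0.28. Of 9 targets of Nr5a2, 4 were above 0 and 5 below, with a median of -0.030, and 2 were lower at an unadjusted p under 0.05. These were Nr0b2 and Scarb1, the HDL receptor, which averaged -0.20 ± 0.050 and was below 0 in all 4 pairs. Cyp8b1, next by unadjusted p at 0.19 ± 0.17, was above 0 in all 4 pairs, as Nr5a2 itself was.

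**Figure D5:**
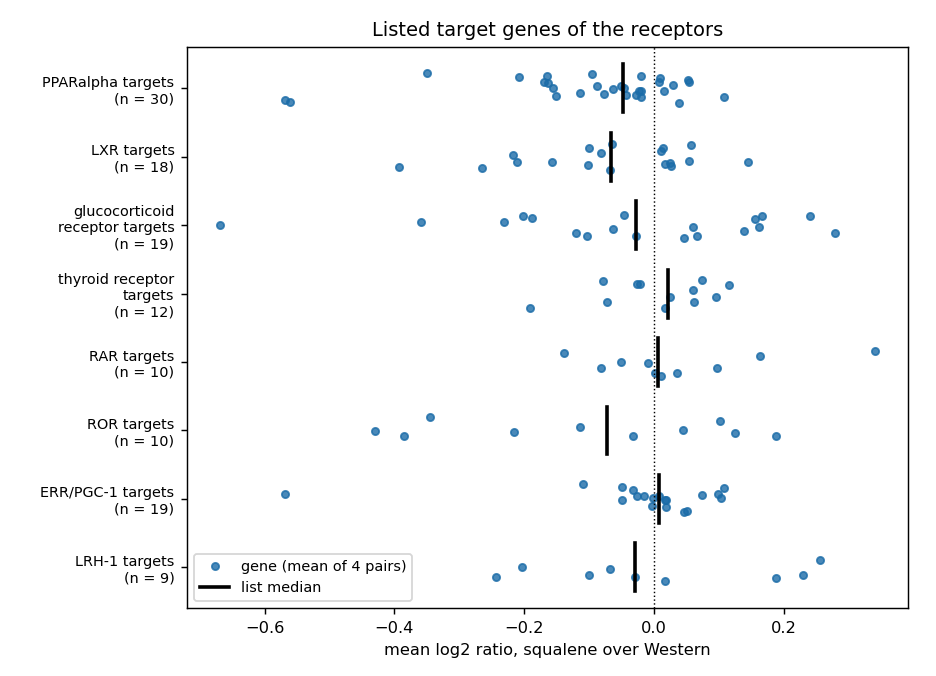
Mean log2 ratio of squalene over Western (horizontal axis) of each listed target gene, 1 point per gene over 4 pool pairs, in 8 lists; black bars are list medians. Medians lie between -0.073 for ROR targets and 0.021 for thyroid hormone receptor targets, and the lowest point is Ddit4 at -0.67.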

How the data were processed

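The 6 arrays were read from the deposited scanner output, which per the file headers came from Agilent Feature Extraction 10.7.3.1; the submitters' processing notes name version 10.7. The deposited files held spot and background intensity for each channel, per the file headers, with the scanner software's processed intensity and its log10 ratios of red over green. Other columns were marks for control spots, outliers and signal above background, given as a score, per the file headers. A value table deposited by the authors gave log10 ratios of squalene over Western from unnormalised median signals, equal within 0.001 for 99.93% to 99.94% of spots per array. Its column medians were 0.254 and 0.27 in pair 1, -0.217 and -0.257 in pair 2, -0.27 in pair 3 and 0.259 in pair 4, and 2 cells in each pair 1 column were beyond the range of a log ratio and not used. The steps behind that table are not stated in the labels or headers.

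On each array 48.67% to 54.16% of spots rose well above background per channel, with 0 saturated; the number of arrays limits the precision. Probes were named through their accessions with a RefSeq table on GRCm38.p6, which named 26762 of 55681.

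Median signals (mean signals had been planned; the files held medians) were corrected with limma's normexp (offset 50) and normalised by loess within arrays, with controls at weight 0 and outlier spots left out. Replicate spots, then repeat arrays, were averaged. Probes well above background under either diet in 3 or more of the 4 pairs were retained, 26854 probes for 20658 features. The limma model (lmFit, eBayes) had terms for dye and for squalene, and p-values were adjusted by Benjamini-Hochberg across all features. Diet levels are log2 intensities by channel, with Aquantile between arrays after loess. Versions were R 4.3.3, limma 3.58.1 and, for the data.table package, 1.17.8.

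The arrays carry no label for separate cultures or animals beyond the pools, so p-values rest on pool pairs. With the dye term, limma's p-values measure the spread of pool pairs within each dye orientation, moderated across features, and not the printed SD. The 35 genes and all lists were chosen with earlier results of these data known. Values by pair are given for genes with 1 sign in all pairs, for the 4 largest SDs and for the 3 brightest; other genes have mean, SD and range, except Pparg, and of each target or receptor list up to 3 genes of smallest unadjusted p are named, apart from a few that are not reported here. Alternatives covered background, normalisation, filter, repeat arrays, slide, dye term, variance model, probes per gene, source of values, features tested and each pair left out.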

Additional observations from a re-analysis of the deposited data

Results flagged for a closer look

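In the 34 measured genes the highest or lowest pool pair was compared with the other 3 by its gap over the whole range, a comparison that chance alone meets in about 1 in 20 groups. It singled out 2 genes. Nr1h2, the ubiquitous liver X receptor, was 0.283 in pair 2, with the other pairs between -0.20 and -0.15. Rxrg, a retinoid X receptor, was 0.139 in pair 3, with the other pairs between -0.027 and -0.0035. The cause was not tested for either gene.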

How the results depend on the processing

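Under every setting tried, 0 of these genes were called. Over all features the count was 0 in the reported fit, 2 with median centring, 4 with slide as a block and 8 with the deposited table, and 0 under the others. At an unadjusted p under 0.05 the count of these genes was 0 in the reported fit. It was 1, Nr5a2, with no filter, slide 2 alone, slide as a block or the trend and robust variance model. With a pool pair left out it was 0 to 4: Med1 (0.40) without pair 1; Esr1 (0.36), Nr2f6 (-0.20), Pparg (-0.24) and Ppargc1b (0.24) without pair 2; Ncor1 (0.26), Nr5a2 (0.21), Ppara (-0.21) and Rara (-0.19) without pair 3. The genes with a mean above 0 numbered 15 to 21 over all settings. Their median was -0.0034 to 0.025 with a pair left out.

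A total of 9 genes kept their sign under every setting: Ncoa2, Nr2f6, Nr5a2, Nr6a1, Ppard, Pparg, Rarb, Rarg and Thra. With each pool pair left out in turn, their lowest and highest ratios were 0.014 and 0.044 for Ncoa2, -0.20 and -0.0095 for Nr2f6, 0.11 and 0.21 for Nr5a2, -0.033 and -0.00038 for Nr6a1, 0.014 and 0.13 for Ppard, -0.24 and -0.085 for Pparg, 0.062 and 0.13 for Rarb, -0.16 and -0.043 for Rarg, and -0.13 and -0.037 for Thra. The other 25 changed sign at least once, and the cause was not tested. Scanner-processed signals gave Esrra 0.00088 and Ncoa1 0.0077. Median centring gave Esrra 0.016, Ncoa1 0.019, Ncoa3 0.011, Nr2c2 0.00012 and Nr2f2 0.019. Slide 2 alone gave Ncoa1 0.0056 and Ncoa3 0.0036. The mean over probes gave Ncoa3 0.041, Nr2c1 0.0038, Nr2c2 0.038, Nr3c1 0.00072, Ppargc1a -0.015 and Rxrg -0.0095. The deposited table gave Esrra 0.018, Ncoa1 0.018, Ncoa3 0.013 and Nr2f2 0.020. The second brightest probe gave Esrrg 0.028, Ncoa3 0.091, Ncor1 -0.00068, Nr2c1 0.029, Nr2c2 0.098, Nr3c1 0.026, Ppargc1a -0.088 and Rxrg -0.043.

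With each pool pair left out in turn, the lowest and highest ratios were -0.029 and 0.36 for Esr1, -0.13 and 0.12 for Esrra, -0.22 and 0.098 for Esrrg, -0.17 and 0.40 for Med1, -0.044 and 0.040 for Ncoa1, and -0.10 and 0.078 for Ncoa3. They were -0.17 and 0.058 for Ncoa6, -0.014 and 0.26 for Ncor1, -0.16 and 0.050 for Nr1h2, -0.053 and 0.10 for Nr1h3, -0.089 and 0.046 for Nr2c1, and -0.10 and 0.055 for Nr2c2. They were -0.046 and 0.044 for Nr2f2, -0.14 and 0.096 for Nr3c1, -0.036 and 0.10 for Nr3c2, -0.18 and 0.24 for Nr4a2, -0.0092 and 0.13 for Nrip1, and -0.21 and 0.11 for Ppara. They were -0.11 and 0.24 for Ppargc1b, -0.19 and 0.0093 for Rara, -0.055 and 0.18 for Rora, -0.095 and 0.035 for Rxrb, -0.012 and 0.059 for Rxrg, and -0.016 and 0.20 for Thrb.

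The reported fit is itself paired, since each array sets 1 squalene pool against 1 Western pool. Pool pair entered as a random block only in the alternative with slide as a block, which was fitted on single arrays. With 4 pool pairs, 2 per dye orientation, differences inside the printed intervals remain possible. The intervals are unadjusted and are not a detection limit under adjustment across all features. Hnf4g, at background, has no ratio to interpret.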
